A study of Mus musculus with 9 samples.

Results

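The 9 haematopoietic cytokine receptor genes described here are Epor, Csf3r, Csf2rb, Csf2rb2, Csf2ra, Il3ra, Csf1r, Il6st and Il6ra. They were chosen by name, as the rows with these symbols, from a table of 38215 genes, and all 9 were found. RNA was sequenced from bone marrow of C57BL/6J mice, in cells sorted as negative for lineage markers and positive for Sca1 and Kit (LSK), the fraction that holds stem cells and multipotent progenitors. Both groups carried Jak2V617F, an activating mutation of the kinase Jak2 found in myeloproliferative neoplasms, both had been given tamoxifen, and all sorted cells were positive for GFP and mCherry. The 5 EV libraries have the genotype Jak2V617F alone, and the 4 sgZrsr2 libraries have Jak2V617F with sgZrsr2, which the design text describes as Zrsr2 loss. Zrsr2 is a protein of the minor spliceosome, and the comparison asks what its loss changes in cells with the Jak2 mutation.

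The labels spell out neither EV nor sg, give the time of collection only as terminal, and state no age. The titles number the EV samples m1 to m5 and the sgZrsr2 samples m1, m2, m3 and m5, taken here as mice. Nothing in the labels says whether these were separate donors or how the GFP and mCherry came into the cells, so p-values measure the spread between these samples. No wild-type Jak2 group is part of the series, and every value below is from Jak2-mutant cells.

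Most cytokine receptors of blood cells have no kinase of their own, while the CSF1 receptor, like Kit and Flt3, is a receptor tyrosine kinase. The others bind Janus kinases: when a ligand brings receptor chains together, the kinases phosphorylate the chains and STAT proteins, which then enter the nucleus and switch on target genes. The erythropoietin and G-CSF receptors work as pairs of the same chain. The receptors for IL-3, GM-CSF and IL-5 each join a ligand-specific alpha chain (Il3ra, Csf2ra, Il5ra) to a shared beta chain (Csf2rb). Mice have a further beta chain, Csf2rb2, which serves IL-3 alone. The IL-6 receptor joins Il6ra to the signalling chain Il6st (gp130), which LIF, IL-11 and related ligands also use. Jak2V617F is known to need such a receptor as a scaffold, among them those for erythropoietin and G-CSF.

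The libraries held 23238264 to 45585531 expected counts. Levels are given as CPM (counts scaled to a common library total) with TMM factors, and a fold change is sgZrsr2 over EV on the log2 scale. Zrsr2 itself measured 50.6, 51.9, 62.2, 51.7 and 50.7 CPM in EV mice 1 to 5 and 39.4, 44.4, 40.0 and 31.7 CPM in sgZrsr2 mice 1, 2, 3 and 5. Its groups did not overlap (log2 fold change -0.46, SE 0.12; exact two-sided permutation p = 0.0159, the smallest this design allows), but edgeR's quasi-likelihood test gave an adjusted p of 0.714. The summed level of 10 LSK markers was 1462 to 2008 CPM in EV and 1622 to 2087 CPM in sgZrsr2 libraries, with none of the 10 at 0. The sgZrsr2 libraries of mice 1 and 2 were nearer to each other than any other pair of 1 group (chi-square per degree of freedom 14.96 over 2396 genes, against 51.1 to 561 for the other pairs), still beyond sampling noise, and were counted separately.

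All 9 receptor genes passed the filter on low counts, and the groups overlapped for each of them. None passed edgeR's quasi-likelihood test at an adjusted p under 0.05 (0 of 9), where 0% of the 14944 genes tested passed. None was under an unadjusted 0.05 (0 of 9, against 6.85% of all genes), and 0 of 9 had groups without overlap (3.06% of all genes). Of the 9 fold changes 4 were above 0 and 5 below, with a median of -0.02, beside -0.01 over all genes tested. An adjusted p above the threshold does not show that levels were equal, and the 95% intervals below give the differences that these data allow. Fewer cells of a type and less RNA per cell cannot be told apart in such bulk libraries, here and for each value that follows.

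**Figure D1:**
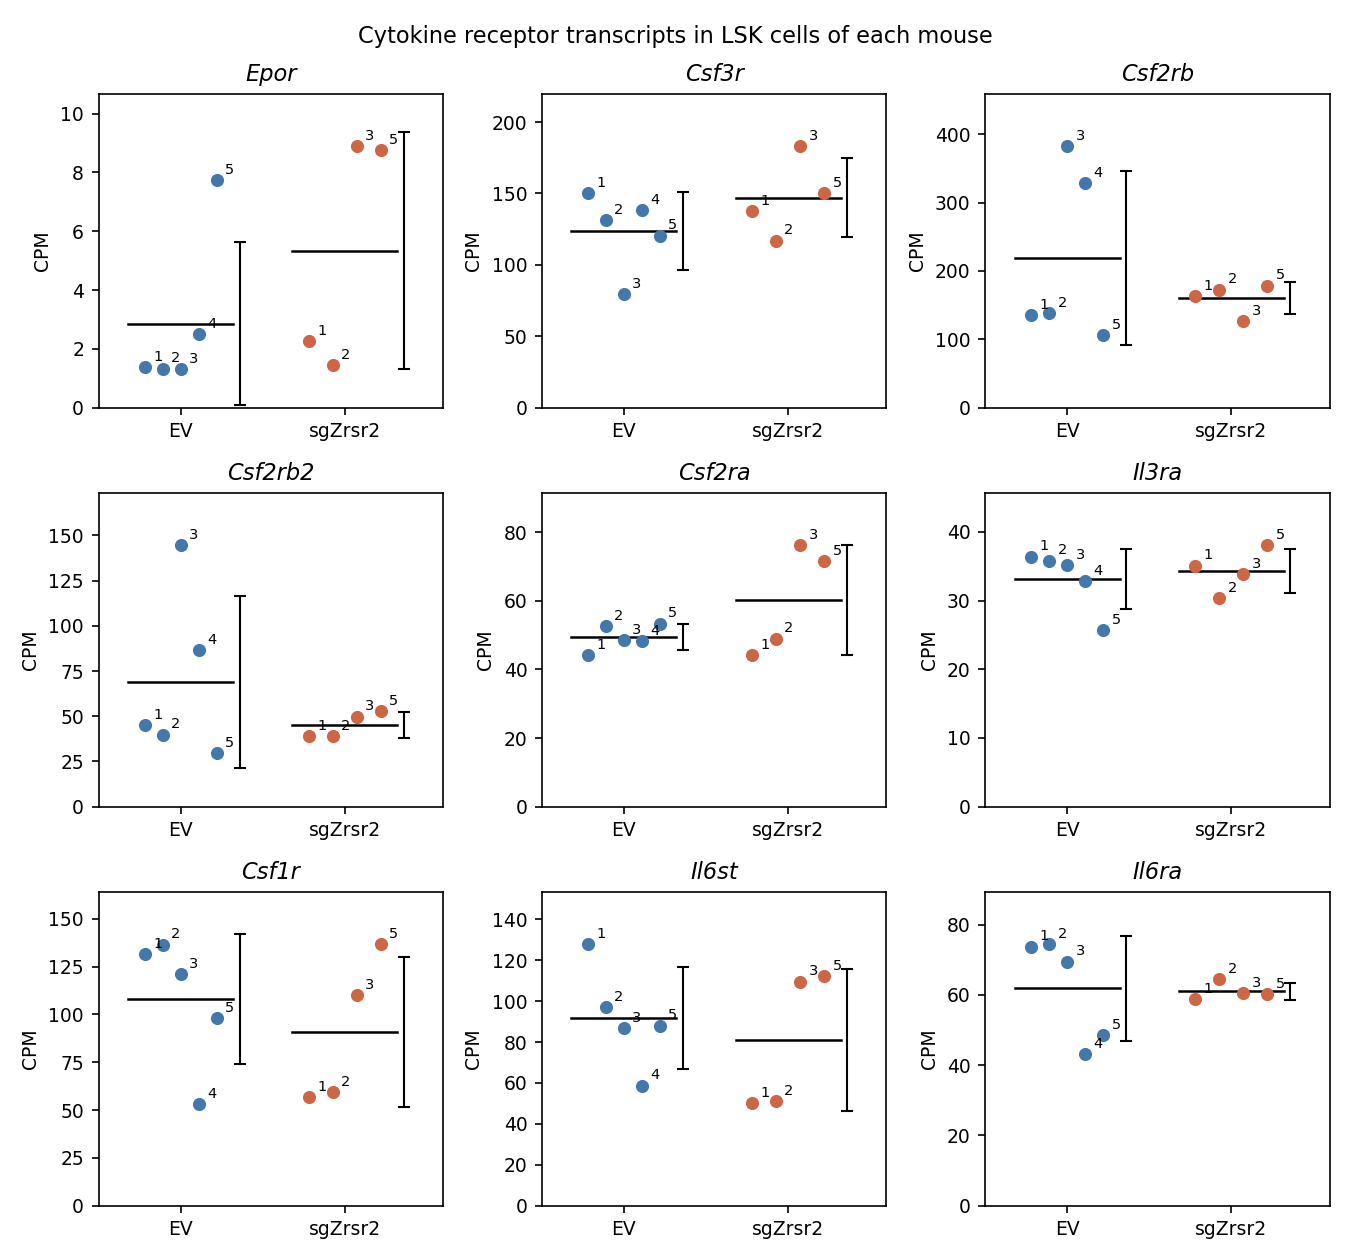
Each panel plots the TMM-scaled CPM of 1 receptor gene by group, with 1 point per library numbered by mouse, a horizontal line at the group mean and a bar for 1 SD (n = 5 EV, n = 4 sgZrsr2). The points of the groups overlap in all 9 panels, and Epor, Csf2rb, Csf2rb2, Csf1r and Il6st each split into libraries of high and low level within a group.

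**Figure D2:**
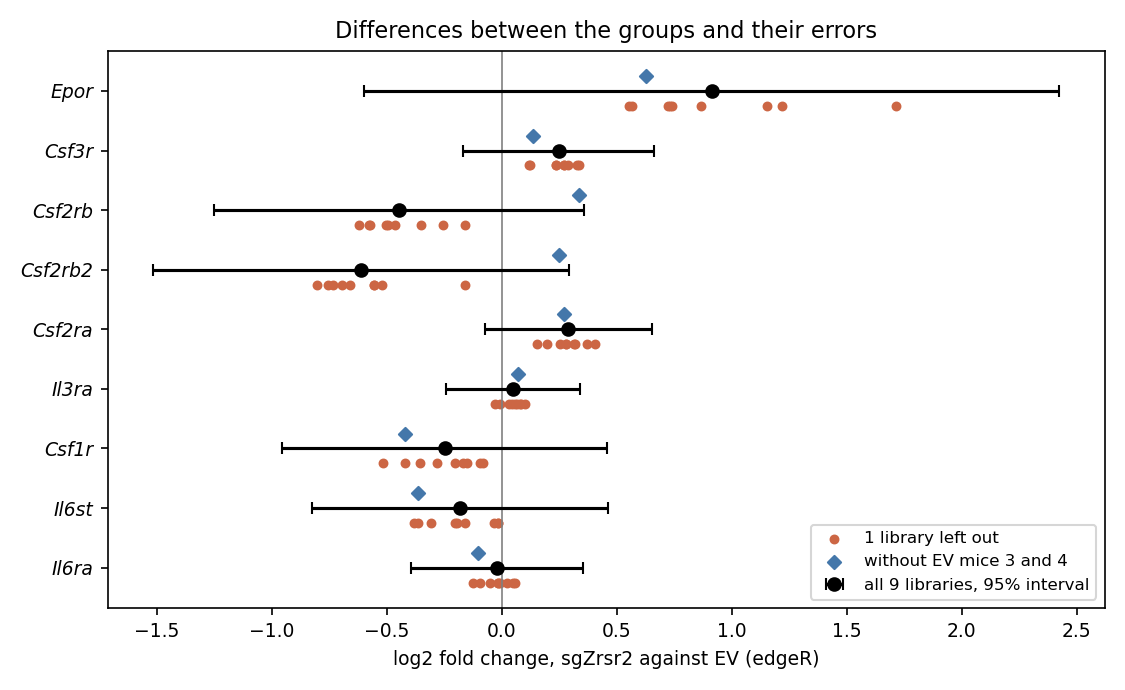
Points give the log2 fold change of sgZrsr2 over EV with its 95% interval from edgeR for each receptor gene, small orange points the value with 1 library left out, and diamonds the value without EV mice 3 and 4. All 9 intervals include 0, the widest being that of Epor (-0.60 to 2.43), and both beta chain genes lie above 0 without EV mice 3 and 4.

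Per kilobase of exonic length, the receptors covered a wide range of levels. Csf3r was highest, at 37.2 ± 7.88 CPM per kb (SD, n = 9 libraries), followed by Csf2rb at 26.5 ± 13.2, Csf2ra at 18.9 ± 4.07 and Csf1r at 17.4 ± 6.10 CPM per kb. Csf2rb2 (12.3 ± 7.63) and Il3ra (11.4 ± 1.26) came next, then Il6st (7.83 ± 2.54) and Il6ra (7.11 ± 1.24), and Epor was last with 1.99 ± 1.72 CPM per kb. Csf3r thus stood at the 90.1st percentile of all genes tested and Epor at the 30.4th. The step from Il6ra down to Epor and the step from Il3ra down to Il6st held in 9 of 9 libraries. Other neighbours in this order changed places: Csf2rb2 was above Il3ra in 2 of 9 libraries, Csf3r above Csf2rb in 7 of 9, Csf1r above Csf2rb2 in 7 of 9, and Csf2rb above Csf2ra, Csf2ra above Csf1r and Il6st above Il6ra in 6 of 9. With the longest coding transcript as the length, Csf2rb came first (39.3 CPM per kb, Csf3r 38.6) and Il3ra passed Csf2rb2 (14.6 and 12.3), so neither of those places in the order is firm.

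Epor (ENSMUSG00000006235, chromosome 9, 21963576 down to 21958899 on the minus strand) encodes the erythropoietin receptor, through which late erythroid progenitors survive and divide. Its promoter is shown as that of the receptor whose level varied most between libraries. The 250 bases before the RefSeq start on GRCm38.p6 (chr9:21963577-21963826, minus strand) hold 1 GATA word, in capitals, which begins 54 bases before the start:
Epor promoter: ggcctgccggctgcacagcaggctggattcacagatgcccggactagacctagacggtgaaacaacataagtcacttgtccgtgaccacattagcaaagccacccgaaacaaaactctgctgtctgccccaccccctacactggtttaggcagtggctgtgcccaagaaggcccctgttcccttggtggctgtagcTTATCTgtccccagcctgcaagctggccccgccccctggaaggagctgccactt
The GATA words searched on both strands were AGATAA with its variant AGATAG, as well as TGATAA with its variant TGATAG; the printed TTATCT is the first of them read on the other strand. They occur in 26.5% of 32851 RefSeq promoter windows of this length, and in those of 4 of the 7 receptors with an entry (Epor, Csf2rb2, Il3ra and Il6ra). A match describes the letters alone.

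Epor measured 1.38, 1.33, 1.31, 2.51 and 7.74 CPM in EV mice 1 to 5 and 2.27, 1.44, 8.90 and 8.76 CPM in sgZrsr2 mice 1, 2, 3 and 5. EV mouse 5 and sgZrsr2 mice 3 and 5 were high, the other 6 libraries low, and both kinds occurred in both groups. The means were 2.85 ± 2.78 (SD, n = 5) and 5.34 ± 4.04 CPM (SD, n = 4), a log2 fold change of 0.91 (SE 0.69; 95% interval -0.60 to 2.43; edgeR adjusted p = 0.753). Its biological coefficient of variation, 0.709, was above that of 95.6% of the genes tested (median 0.241), and its counts were the lowest of the 9 receptors, at 36 to 366 per library. Left out singly, EV mouse 5 moved the fold change to 1.71 and sgZrsr2 mouse 3 to 0.55. Without all 3 high libraries, which are also those of high Car1, it was 0.19. That value compares only libraries of low Epor, with mice 1 and 2 as the only sgZrsr2 libraries.

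The same 3 libraries were the highest for 7 of 9 erythroid markers tested, among them Car1, Klf1 and Gata1 but not Rhag or Tfrc. These libraries were also the highest for 10 of 13 megakaryocyte markers, but not for Itga2b, Ppbp or Selp. Over all genes tested this held for 7.81%. Car1, a carbonic anhydrase of early erythroid cells, measured 25.4, 39.3 and 35.5 CPM in EV mouse 5 and sgZrsr2 mice 3 and 5, and 0 to 0.422 CPM in the other 6. Klf1, an erythroid transcription factor, measured 8.81, 14.3 and 12.3 CPM there and 0.668 to 1.75 CPM elsewhere. Gata1, another such factor, measured 24.1, 26.2 and 38.8 CPM there and 2.31 to 9.57 CPM elsewhere. The summed level of the 14 erythroid markers in the table was 424 to 614 CPM in EV and 393 to 793 CPM in sgZrsr2 libraries. It rests mainly on Tfrc and Car2, without which it was 119, 219 and 173 CPM in those 3 libraries and 9.66 to 19.6 CPM in the others. The summed level of the 13 megakaryocyte markers was 461, 617 and 733 CPM in those 3 libraries and 273 to 539 CPM in the others, which overlap. The part of erythroid or megakaryocytic cells in the Epor values was not tested. By root mean square difference of centred log2 CPM over the 9 libraries (0 for the same profile), the genes most like Epor among 13063 were Reep2 (0.30), Ces2g (0.37) and Mfsd2b (0.44), where the spread of Epor itself was 1.14.

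**Figure D3:**
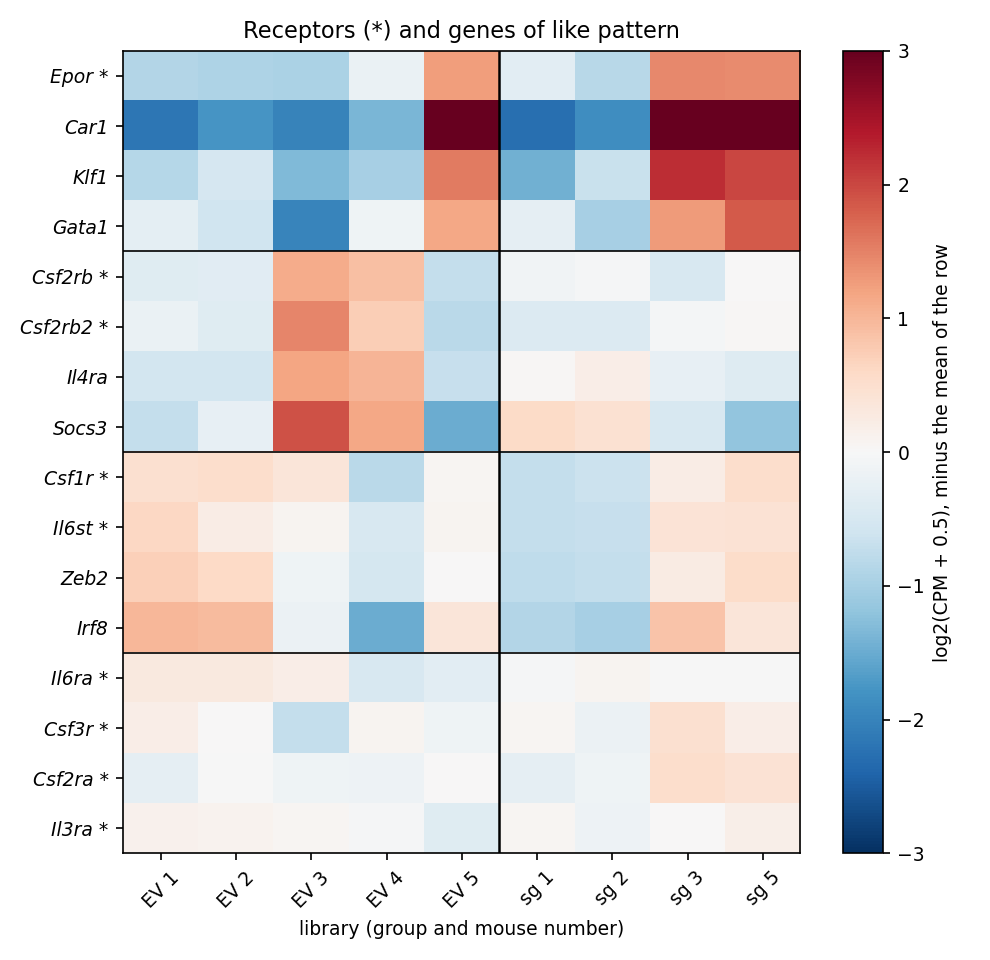
Colour gives log2(CPM + 0.5) of each gene in each library minus the mean of its row, for the 9 receptors (starred) and 7 other genes, with a line between the groups and colours ending at 3 in either direction (Car1 goes beyond it). Epor, Car1, Klf1 and Gata1 are high in EV 5, sg 3 and sg 5, the beta chains, Il4ra and Socs3 in EV 3 and EV 4, and Csf1r, Il6st, Zeb2 and Irf8 are low in EV 4, sg 1 and sg 2. The other 7 genes were chosen after their values were seen.

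Other receptors were also highest in those 3 libraries: 5 of 36 (13.9%, beside 7.81% of all genes) in a list of further cytokine receptors, among them Kit, the receptor of stem cell factor. Kit measured 247 to 523 CPM in EV and 398 to 632 CPM in sgZrsr2 libraries, ranges that overlapped. Flt3, the receptor of an early lymphoid and myeloid growth factor, measured 245 to 504 CPM in EV and 227 to 363 CPM in sgZrsr2 libraries.

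Csf3r (ENSMUSG00000028859, chromosome 4, 126024550 to 126044440, plus strand) encodes the G-CSF receptor, which drives neutrophil production. It measured 150.2, 131, 79.3, 138 and 121 CPM in EV mice 1 to 5 and 138, 117, 183 and 150.2 CPM in sgZrsr2 mice 1, 2, 3 and 5. EV mouse 3 was the lowest library and sgZrsr2 mouse 3 the highest, while the other 7 lay between 117 and 150.2 CPM. The means were 124 ± 27.2 and 147 ± 27.8 CPM (log2 fold change 0.25, SE 0.19; 95% interval -0.17 to 0.66; edgeR adjusted p = 0.754). The summed level of 15 neutrophil and granulocyte markers was 3596 to 4081 CPM in EV and 3450 to 4968 CPM in sgZrsr2 libraries. It was lowest in sgZrsr2 mouse 3, where Csf3r was highest, while S100a9, 1 marker of the list, was highest in that library (56.9 CPM, against 2.23 to 49.5 CPM in the others). The profiles nearest to that of Csf3r were those of Chrnb2 (0.09), Ulk3 (0.10) and Accs (0.10), with a spread of 0.31 for Csf3r.

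The beta chains are encoded side by side on chromosome 15. Csf2rb2 (ENSMUSG00000071714, 78282517 to 78305603, minus strand) and Csf2rb (ENSMUSG00000071713, 78325990 to 78351000, plus strand) point away from each other with 20386 bases and no other gene of the table between them. Their coding sequences in GENCODE M21, 2688 bases for Csf2rb and 2634 for Csf2rb2, matched at 2503 of 2628 aligned bases (95.2%). The first 120 coding bases are shown because they give the scale of the likeness on which the split of reads between the genes depends. Capitals mark the 4 bases at which they differ:
Csf2rb: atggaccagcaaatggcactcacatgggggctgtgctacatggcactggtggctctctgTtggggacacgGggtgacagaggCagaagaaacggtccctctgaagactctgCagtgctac
Csf2rb2: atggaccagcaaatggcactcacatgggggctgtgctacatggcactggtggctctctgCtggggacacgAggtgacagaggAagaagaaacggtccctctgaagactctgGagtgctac
The longest identical run was 242 bases. Of all stretches of 100 bases in the main transcript of Csf2rb, 7.16% occurred letter for letter in that of Csf2rb2, and 7.20% the other way round. For stretches of 50 bases these shares were 18.9% and 19.0%. The expected counts of both genes were not whole numbers in any of the 9 libraries, while 6 of the other receptors had whole counts in all 9. RSEM divides reads that match several genes, and the separate levels of these genes are less certain than their sum.

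Csf2rb measured 136, 139, 383, 329 and 107 CPM in EV mice 1 to 5 and 163, 173, 127 and 179 CPM in sgZrsr2 mice 1, 2, 3 and 5. Csf2rb2 measured 44.9, 39.9, 145, 86.7 and 29.4 CPM in EV mice 1 to 5 and 39.0, 39.2, 49.8 and 52.9 CPM in the sgZrsr2 mice. EV mice 3 and 4 stood above the other 7 libraries for both genes, and the sgZrsr2 values lay within the range of the EV group. The means of Csf2rb were 219 ± 127 and 160.3 ± 23.1 CPM (log2 fold change -0.45, SE 0.36, 95% interval -1.25 to 0.36, edgeR adjusted p = 0.762). Those of Csf2rb2 were 69.1 ± 47.6 and 45.2 ± 7.19 CPM (log2 fold change -0.61, SE 0.41; 95% interval -1.52 to 0.29; edgeR adjusted p = 0.737). With the counts of both genes added into 1 row the log2 fold change was -0.49.

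Both fold changes turned without EV mice 3 and 4. In that setting, an alternative chosen after the data were seen, Csf2rb was at 0.33 and Csf2rb2 at 0.25. Without EV mouse 3 alone, each was at -0.16. With the mouse number as a replicate block they were at -0.04 and -0.22. With limma-voom and all 9 libraries, Csf2rb was at 0.19 and Csf2rb2 at -0.0106.

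The genes beside the pair did not share its pattern. Ncf4, a subunit of the phagocyte oxidase that lies next to Csf2rb2, measured 38.0 CPM in EV mouse 3 and 46.7 CPM in EV mouse 4 within a range of 30.4 to 46.7 CPM. Mpst, a sulphurtransferase gene beyond Csf2rb, measured 27.8 and 30.2 CPM there, the lowest of its range up to 41.5 CPM. The 250 bases before the start of Csf2rb2 (chr15:78305722-78305971, minus strand, RefSeq, GRCm38.p6) are shown because a word of the STAT site pattern lies in them:
Csf2rb2 promoter: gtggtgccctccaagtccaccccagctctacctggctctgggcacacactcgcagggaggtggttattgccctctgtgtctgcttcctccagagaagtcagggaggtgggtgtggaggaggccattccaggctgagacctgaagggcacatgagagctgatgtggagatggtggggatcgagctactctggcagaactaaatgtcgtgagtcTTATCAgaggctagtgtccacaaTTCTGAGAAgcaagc
Capitals mark a GATA word that begins 38 bases and the STAT word TTCTGAGAA that begins 15 bases before the start, without overlap. The STAT pattern TTCNNNGAA, searched on both strands, occurs in 7.02% of the 32851 promoter windows and in 1 of the 7 receptors with an entry. The ETS word GAGGAA, also searched on both strands, occurs in 23.3% of the windows and in 4 of the 7 receptors (Csf3r, Csf2rb2, Csf2ra and Il6ra). Csf2rb, which shared the library pattern of Csf2rb2, had no entry, nor had Csf1r. A match describes the letters alone, here as for Epor.

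**Figure D4:**
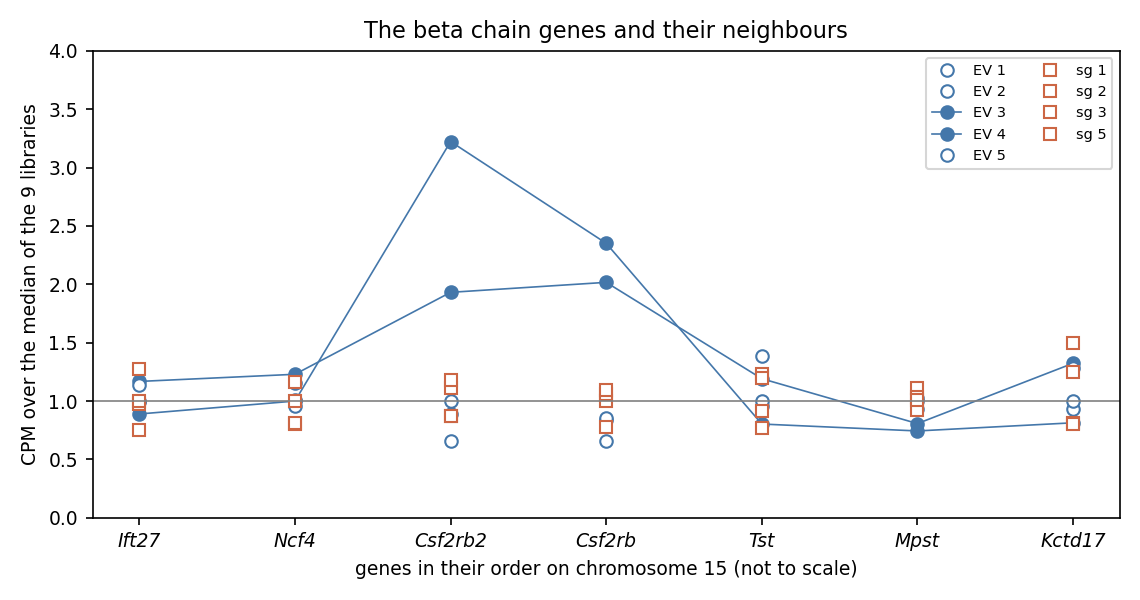
The CPM of each gene in each library is divided by the median of the 9 libraries, for the 7 genes around the beta chain pair in their order on chromosome 15 (not to scale); circles are EV and squares sgZrsr2 libraries, and EV 3 and EV 4 are filled and joined. Both libraries are above all others at Csf2rb2 and Csf2rb, and at none of Ift27, Ncf4, Tst, Mpst and Kctd17 are both above the rest.

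EV mice 3 and 4 were the highest libraries for 10 of 27 listed targets of STAT5 and STAT3, a share of 37.0%, where 12.6% of all genes tested had them highest. The 10 were Socs1, Socs3, Id1, Cebpb, Cebpd, Lrg1, Il4ra, Gadd45g, Tfrc and Trib1. Socs3 is a feedback inhibitor of gp130 and G-CSF receptor signalling. It measured 367 and 217 CPM in EV mice 3 and 4 and 34.6 to 145 CPM in the other 7 libraries. Il4ra, the IL-4 receptor alpha chain, measured 306 and 273 CPM there and 82.8 to 155 CPM elsewhere. Among monocyte and macrophage markers the same held for Ccr2, Cd68 and Fcgr1, while the summed level of the 13 markers was 1267 and 644 CPM in these libraries, within and at the bottom of a range up to 1561 CPM. The part of such cells in the beta chain values was not tested. P2ry2 (0.19), Il4ra (0.21) and Pgs1 (0.22) had the profiles nearest to Csf2rb, whose spread was 0.59. Nearest to Csf2rb2, with a spread of 0.66, were Gadd45a (0.22), Muc1 (0.25) and Csf2rb itself (0.26).

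The alpha chains varied less. Il3ra (ENSMUSG00000068758, chromosome 14, 14346495 to 14355490, plus strand), the IL-3 binding chain, measured 36.4, 35.8, 35.2, 32.8 and 25.7 CPM in EV mice 1 to 5 and 35.1, 30.3, 33.9 and 38.1 CPM in sgZrsr2 mice 1, 2, 3 and 5. It was the least variable of the 9 receptors, with a highest level 1.48 times the lowest. The means were 33.2 ± 4.38 and 34.3 ± 3.23 CPM (log2 fold change 0.05, SE 0.13; 95% interval -0.24 to 0.34; edgeR adjusted p = 0.929). Its nearest profiles were those of Fam89b (0.09), Whamm (0.10) and Arhgap26 (0.10), against a spread of 0.16 for Il3ra.

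Csf2ra (ENSMUSG00000059326, chromosome 19, 61224402 to 61228418, minus strand), the GM-CSF binding chain, measured 44.1, 52.6, 48.4, 48.2 and 53.3 CPM in EV mice 1 to 5 and 44.2, 48.9, 76.3 and 71.6 CPM in sgZrsr2 mice 1, 2, 3 and 5. The upper 2 sgZrsr2 libraries lay above all EV libraries and the lower 2 within them. The means were 49.3 ± 3.76 and 60.2 ± 16 CPM (log2 fold change 0.29, SE 0.16; 95% interval -0.07 to 0.65; edgeR adjusted p = 0.718), the smallest p among the 9 receptors. Mice 3 and 5 of the sgZrsr2 group were also the highest libraries for 10 of 13 megakaryocyte and 5 of 9 erythroid markers, and for 9.85% of all genes tested. The part of those cells in the Csf2ra values was not tested. Without the 3 libraries of high Car1, which include the upper 2 sgZrsr2 libraries, the fold change of Csf2ra was -0.05. The profiles of Arhgap23 (0.09), Fyb (0.10) and Rbm38 (0.10) were nearest to it, with a spread of 0.27 for Csf2ra.

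Within a library, the ratio of expected counts does not depend on scaling, and these ratios are described without a test. There were 0.324, 0.380, 0.126, 0.147 and 0.50 counts of Csf2ra per count of Csf2rb in EV mice 1 to 5 and 0.271, 0.284, 0.601 and 0.401 in the sgZrsr2 mice. For Il3ra per Csf2rb the values were 0.268, 0.258, 0.0919, 0.0999 and 0.241 in EV and 0.215, 0.176, 0.267 and 0.213 in sgZrsr2 mice. Both alpha chains were thus lowest relative to Csf2rb in EV mice 3 and 4, where Csf2rb was high and the alpha chains were at 48.2 to 48.4 CPM (Csf2ra) and 32.8 to 35.2 CPM (Il3ra). Csf2rb2 per Csf2rb was between 0.264 and 0.378 in EV and between 0.227 and 0.392 in sgZrsr2 libraries, with no library apart. The third partner of the shared beta chain, Il5ra, the eosinophil IL-5 receptor chain, had 17 counts over all 9 libraries.

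**Figure D5:**
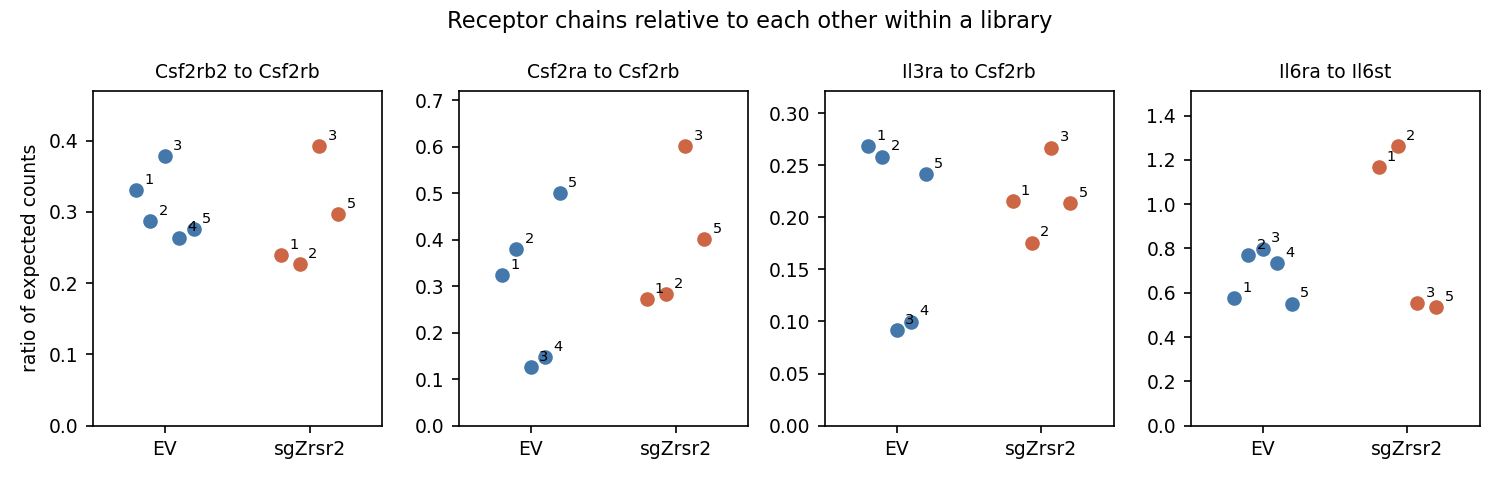
Each panel plots the ratio of the expected counts of 2 receptor chains in each library by group, with points numbered by mouse and the axis from 0. EV mice 3 and 4 are lowest for Csf2ra and Il3ra relative to Csf2rb, and sgZrsr2 mice 1 and 2 are highest for Il6ra relative to Il6st.

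Csf1r (ENSMUSG00000024621, chromosome 18, 61105572 to 61132149, plus strand) encodes the receptor of CSF1 and IL-34, on which monocytes and macrophages depend. It measured 131, 136, 121, 53.2 and 97.9 CPM in EV mice 1 to 5 and 56.8, 59.5, 110.2 and 137 CPM in sgZrsr2 mice 1, 2, 3 and 5. EV mouse 4 and sgZrsr2 mice 1 and 2 were low, at 53.2 to 59.5 CPM, and the other 6 libraries lay at 97.9 to 137 CPM. The means were 108 ± 34.1 and 90.9 ± 39.3 CPM (log2 fold change -0.25, SE 0.32; 95% interval -0.96 to 0.46; edgeR adjusted p = 0.845). With 1 library left out at a time, the fold change ran from -0.52 to -0.08. It was -0.91 without the 3 libraries of high Car1. In that setting only mice 1 and 2, both low for Csf1r, remain in the sgZrsr2 group. The fold change was -0.74 with limma-voom and -0.09 with sgZrsr2 mice 1 and 2 averaged into 1 library. The end of Csf1r overlaps that of Hmgxb3 on the other strand, and whether counting used strand is not given in the sources used here; Hmgxb3 measured 59.8 to 76.2 CPM.

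Il6st (ENSMUSG00000021756, chromosome 13, 112475008 to 112506860, plus strand), the shared signalling chain of the IL-6 family, measured 128, 97.0, 87.0, 58.7 and 88.0 CPM in EV mice 1 to 5 and 50.3, 51.1, 109.6 and 112 CPM in sgZrsr2 mice 1, 2, 3 and 5. The 3 lowest libraries were those that were lowest for Csf1r, at 50.3 to 58.7 CPM against 87.0 to 128 CPM in the rest. The means were 91.7 ± 24.9 and 80.8 ± 34.7 CPM (log2 fold change -0.18, SE 0.29; 95% interval -0.82 to 0.46; edgeR adjusted p = 0.881). The fold change was -0.86 without the 3 libraries of high Car1, where only the low mice 1 and 2 remain in the sgZrsr2 group. It was -0.63 with limma-voom and -0.02 with sgZrsr2 mice 1 and 2 averaged into 1 library. Of the members, Csf1r and Il6st had the profiles most alike (0.20), and Il6st was the gene nearest to Csf1r among all 13063 compared, before Klrb1f (0.20) and Zeb2 (0.21), with a spread of 0.54 for Csf1r. Nearest to Il6st were Ryr1 (0.10), Zeb2 (0.16) and Clic3 (0.17), with a spread of 0.48.

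The libraries in which Csf1r and Il6st were low were the lowest for 2.87% of all genes tested. Among these were Irf8 and Cx3cr1, 2 of 13 monocyte and macrophage markers, and Il7r and Dntt, 2 of 13 lymphoid markers. Irf8, a transcription factor of monocyte and dendritic cell precursors, measured 129, 197 and 180.4 CPM in EV mouse 4 and sgZrsr2 mice 1 and 2, and 320.4 to 715 CPM in the others. Cx3cr1, a chemokine receptor of monocytes, measured 4.15, 4.81 and 4.08 CPM there and 9.20 to 41.4 CPM elsewhere. Zeb2, a transcription factor needed by monocytes and dendritic cells, measured 101, 86.1 and 88.8 CPM there and 135 to 241 CPM in the rest. The summed level of the 13 monocyte and macrophage markers was 644, 809 and 823 CPM in these libraries and 1056 to 1561 CPM in the other 6, with none of the 13 at 0 in all libraries. This separation came from Irf8: without it the sums were 515, 611 and 643 CPM there and 590 to 947 CPM in the others, which overlap. The summed level of 15 lymphoid markers was 111, 72.7 and 84.1 CPM there and 136 to 392 CPM in the others, and most of it was Dntt. Without Dntt it was 28.5, 21.7 and 27.6 CPM there and 27.2 to 110.5 CPM elsewhere, which also overlap. The part of monocyte and lymphoid progenitors in the levels of Csf1r and Il6st was not tested.

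Il6ra (ENSMUSG00000027947, chromosome 3, 89869324 to 89913162, minus strand), the IL-6 binding chain, measured 73.8, 74.6, 69.5, 43.1 and 48.5 CPM in EV mice 1 to 5 and 58.8, 64.5, 60.6 and 60.2 CPM in sgZrsr2 mice 1, 2, 3 and 5. EV mice 4 and 5 were the lowest libraries, and all 4 sgZrsr2 libraries lay between them and EV mice 1 to 3. The means were 61.9 ± 14.9 and 61.0 ± 2.46 CPM (log2 fold change -0.02, SE 0.17; 95% interval -0.39 to 0.35; edgeR adjusted p = 0.981). Its nearest profiles were those of Npc2 (0.10), Mef2a (0.10) and Fam107b (0.11), with a spread of 0.25.

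Il6ra did not follow its signalling chain. Counts of Il6ra per count of Il6st were 0.576, 0.768, 0.799, 0.734 and 0.551 for EV mice 1 to 5, and for sgZrsr2 mice 1, 2, 3 and 5 they were 1.17, 1.26, 0.553 and 0.536. Il6ra outnumbered Il6st in counts in sgZrsr2 mice 1 and 2, the libraries in which Il6st was lowest. Of other chains pairing with Il6st, Lifr, the LIF receptor, measured 10.2 to 35.0 CPM in EV and 10.3 to 25.2 CPM in sgZrsr2 libraries. Il11ra1, the IL-11 receptor, measured 35.3 to 52.1 CPM in EV and 35.4 to 48.6 CPM in sgZrsr2 libraries. Osmr, the oncostatin M receptor, had 2 counts over the 9 libraries and Cntfr, the CNTF receptor, 0.

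Some ligands of these receptors had few or no counts, and others passed the filter. Epo and Il3 had 0 counts in the 9 libraries together, Il34 8, Csf2 19 and Csf3 26. Of 18 listed ligands 9 passed the filter, 7 with a fold change above 0 and 2 below (median 0.24, beside -0.01 over all genes tested). Of these, 0 of 9 were under an unadjusted 0.05 (6.85% of all genes). The smallest p belonged to Csf1, a ligand of Csf1r, at 10.9 ± 1.43 CPM in EV and 13.4 ± 1.76 CPM in sgZrsr2 libraries (log2 fold change 0.30, edgeR adjusted p = 0.714). Next was Il27, part of a cytokine that signals through Il6st, at 0.98 ± 0.258 and 1.48 ± 0.573 CPM (log2 fold change 0.60, edgeR adjusted p = 0.720).

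Among 36 other cytokine receptors tested of 46 listed, 0 passed the adjusted threshold. At an unadjusted 0.05, 4 were higher, beside 3.87% of all genes, and 1 was lower, beside 2.98%. In all, 28 fold changes were above 0 and 8 below (median 0.17), beside 7246 above and 7698 below over all genes tested (median -0.01). Tgfbr2, a TGF-beta receptor, measured 71.9 ± 10.1 CPM in EV and 92.4 ± 4.35 CPM in sgZrsr2 libraries (log2 fold change 0.36, SE 0.11; edgeR adjusted p = 0.714). The TNF receptors Tnfrsf1a (96.9 ± 3.45 and 114 ± 5.04 CPM) and Tnfrsf1b (70.7 ± 5.64 and 81.4 ± 2.67 CPM) were the 2 of 36 whose groups did not overlap, beside 3.06% of all genes. Ifnar1, an interferon receptor chain, measured 96.2 ± 11.52 and 114 ± 7.22 CPM. Il13ra1, an IL-13 receptor chain, was the lower one, at 3.5 ± 1.68 and 1.75 ± 0.606 CPM (log2 fold change -1.0, SE 0.40; edgeR adjusted p = 0.714).

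Of 47 genes that act downstream of the receptors, all tested, 0 passed the adjusted threshold. At an unadjusted 0.05, 7 were higher (3.87% of all genes) and 0 lower (2.98%). Of the fold changes 34 were above 0 and 13 below (median 0.13), beside 7246 above and 7698 below over all genes tested (median -0.01). Socs4, a suppressor of cytokine signalling, measured 47.0 ± 7.45 CPM in EV and 65.4 ± 8.43 CPM in sgZrsr2 libraries (log2 fold change 0.48, SE 0.14, edgeR adjusted p = 0.714). Its groups did not overlap, which held for 1 of the 47 genes and for 3.06% of all genes. Cblb, a ubiquitin ligase that limits receptor signalling, measured 39.0 ± 6.02 and 53.1 ± 8.26 CPM, and the adaptor Gab1 measured 16.8 ± 3.90 and 26.6 ± 7.56 CPM. Pias1, a SUMO ligase, was at 39.0 ± 7.64 and 51.3 ± 3.60 CPM, and the adaptor Dok1 at 32.7 ± 2.80 and 41.7 ± 7.32 CPM. Of the receptor-bound kinases, Jak1 measured 233 ± 24.3 CPM in EV and 259 ± 14.9 CPM in sgZrsr2 libraries, and Jak2 measured 73.3 ± 11.98 and 88.4 ± 3.69 CPM (edgeR adjusted p = 0.737 and 0.714).

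The 27 listed targets of STAT5 and STAT3, all tested, had 10 fold changes above 0 and 17 below (median -0.15, beside -0.01 over all genes), with 0 past the adjusted threshold. At an unadjusted 0.05, 3 were lower (2.98% of all genes) and 0 higher (3.87%). These were Tnfrsf13b, a receptor of B cell survival factors (65.3 ± 10.5 and 49.6 ± 3.66 CPM, without overlap), the cyclin Ccnd1 (101 ± 19.9 and 76.6 ± 1.6 CPM) and the transferrin receptor Tfrc (323 ± 104 and 227 ± 39.2 CPM). Their log2 fold changes were -0.40, -0.40 and -0.51, each with an edgeR adjusted p of 0.714. Tnfrsf13b was the 1 of 27 targets without overlap, beside 3.06% of all genes. Tfrc was among the targets that were highest in EV mice 3 and 4, the libraries in which the beta chains were high.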

How the data were processed

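The authors deposited RSEM expected counts per Ensembl gene, 1 column per sample, not normalized. The submitters' processing notes name cutadapt 1.11, RSEM 1.2.30 and GRCm38; the aligner, annotation and strand setting are not given in the sources used here. Per the labels' protocols, libraries were made from 5 ng of RNA by polyA selection and PCR; no molecular identifiers are named, so PCR noise between libraries cannot be removed. RSEM divides reads that match several genes, so 9.78% to 13.3% of values per library were not whole. Of the receptors this touches Csf2rb, Csf2rb2 and Csf1r.

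Counts were rounded, filtered with filterByExpr (minimum count 10, minimum total 15; 14944 genes, 99.93% of counts) and scaled with TMM factors (0.894 to 1.07). Groups were compared with edgeR 4.0.16 in R 4.3.3 (glmQLFit, glmQLFTest), with Benjamini-Hochberg adjustment over the 14944 genes. The SE is the size of the log2 fold change over the square root of F. Two-sided exact permutation tests compared mean CPM over all splits into 5 and 4 libraries; for the 9 receptors their p ran from 0.206 to 0.952. Levels per kb use exon unions of GENCODE M21, and coordinates are those of the deposited table. Likeness used log2 CPM with a prior count of 2, for genes of at least 1 CPM on average. The gene test was tested on simulated data.

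The receptors, gene lists and alternatives were chosen with earlier results of these data known, and the lists were written from general knowledge. Beside the receptors and Zrsr2, the rule named list genes under an unadjusted 0.05 (at most 5 per list, otherwise the 2 of smallest p), partner chains, the 3 nearest profiles and list markers. Ligands with few counts, Socs3, Irf8, Dntt, S100a9, the neighbours of the beta chains and the library patterns were chosen after their values were seen. Alternatives were RLE and upper-quartile factors, library totals, other filters, no rounding, DESeq2 1.42.0, limma-voom (limma 3.58.1) with quality weights, a replicate block, libraries left out and beta chain counts added. Some genes of the lists are not reported here by name.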

Additional observations from a re-analysis of the deposited data

Results flagged for a closer look

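In 44 sets of values (22 measures in each group), 3 held a library farther from the others than Dixon's 95% limit allows, where chance gives about 2.2. The Epor level of EV mouse 5, 7.74 CPM, stood apart from 1.31 to 2.51 CPM in the other EV libraries. The Zrsr2 level of EV mouse 3, 62.2 CPM, stood above 50.6 to 51.9 CPM in the other EV libraries. The summed level of 4 eosinophil markers in sgZrsr2 mouse 3, 38.8 CPM, stood above 3.2 to 7.65 CPM in the other sgZrsr2 libraries.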

How the results depend on the processing

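Under all alternatives run, 179 of 191 values of the 9 receptors kept their direction, 12 reversed, and 0 passed the adjusted threshold (smallest adjusted p 0.214). The reversed log2 fold changes were those of Csf2rb with limma-voom (0.19) and without EV mice 3 and 4 (0.33), Csf2rb2 without EV mice 3 and 4 (0.25), Csf2ra without the 3 libraries of high Car1 (-0.0450), Il3ra with limma-voom (-0.0299) and without those 3 libraries (-0.0926), and Il6ra with library totals (0.0134, a mean difference of 0.563 CPM); the cause was not tested. With 1 library left out, Il3ra ran from -0.0287 to 0.0991 (reversed without EV mouse 5 or sgZrsr2 mouse 5) and Il6ra from -0.127 to 0.0560 (reversed without EV mouse 1, 2 or 3). The other receptors kept their sign, Epor between 0.55 and 1.71, Csf3r 0.12 and 0.34, Csf2rb -0.62 and -0.16, Csf2rb2 -0.80 and -0.16, Csf2ra 0.16 and 0.41, Csf1r -0.52 and -0.08, and Il6st -0.38 and -0.01. Without the 3 libraries of high Car1, Epor was at 0.19, Csf2rb2 at -1.01, Csf1r at -0.91 and Il6st at -0.86. That setting keeps only mice 1 and 2 of the sgZrsr2 group and removes the 3 libraries highest for Epor. Limma-voom gave -0.74 for Csf1r and -0.63 for Il6st, while averaging sgZrsr2 mice 1 and 2 gave -0.09 and -0.02. The number of genes past the adjusted threshold was 16 with DESeq2 and 1 with sgZrsr2 mice 1 and 2 averaged, none of them a receptor described here, and 0 otherwise; the unadjusted count of 1024 became 341 with the replicate block, 2551 with limma-voom, 609 without EV mouse 4 and 1692 without the 3 libraries.

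The labels do not say whether the mouse numbers pair the samples. Deviations of same-numbered libraries correlated at -0.23, -0.09, -0.40 and 0.37 for mice 1, 2, 3 and 5, and 1 of 4 correlated best with its own number. With so few libraries these values cannot show whether the samples were paired. With the replicate block the log2 fold changes were 0.90 (Epor), 0.30 (Csf3r), -0.04 (Csf2rb), -0.22 (Csf2rb2), 0.25 (Csf2ra), 0.05 (Il3ra), -0.52 (Csf1r), -0.39 (Il6st) and -0.11 (Il6ra). Depth limits Epor most, at 36 to 366 counts.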
